A study of Mus musculus with 6 samples.

Results

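Homeostatic microglia marker genes were followed in BV2 cells, an immortalized mouse microglial line, with and without overexpression of PGC-1α, a transcriptional coactivator known for driving mitochondrial biogenesis. The 9 genes were P2ry12, Tmem119, Cx3cr1, Sall1, Gpr34, Olfml3, Mertk, Fcrls and Siglech. They were chosen by name, as genes used to mark resting microglia, with earlier results of these data known. They were found through the RefSeq accession that the array gives for each probe. Together they had 12 probes, out of 23458 genes with 33762 probes that could be named in the same way. The samples were 3 arrays of control cells, labelled as being without PGC-1α overexpression, and 3 arrays of cells labelled PGC-1α overexpression, and every sample of both groups carried the label LPS (lipopolysaccharide, a bacterial membrane component that activates microglia). The methods of the study give 500 ng/ml LPS for 6 h for this line without naming the arrays, and describe a lentivirus with a ubiquitin promoter, EGFP and puromycin selection for the overexpressing cells and a negative-control lentivirus that the sample labels do not mention. No sample without LPS was analysed here, so the values describe the difference between the labelled groups under LPS only. Whether that difference came from PGC-1α or from the lentivirus, the selection or the culture was not tested. The labels do not say whether the 3 samples of a group came from separate cultures, so p-values measure the spread between these samples, which may be technical.

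In the brain, microglia that survey undisturbed tissue keep a set of genes that most other macrophages lack, and they lower many of them when they are activated or removed from the brain. The set depends on transforming growth factor β (TGF-β) signalling through Smad proteins and on transcription factors such as Sall1 and PU.1, and cultured microglia and immortalized lines are known to retain it in part. Among the members, P2ry12, Cx3cr1 and Gpr34 encode G protein-coupled receptors that sense nucleotides, the chemokine fractalkine and lysophosphatidylserine. Tmem119 encodes a membrane protein widely used as a microglial marker, Siglech a sialic acid-binding lectin, Fcrls an Fc receptor-like scavenger protein, Mertk a receptor tyrosine kinase for the engulfment of dying cells, Olfml3 a secreted olfactomedin-domain protein and Sall1 a zinc finger factor of microglial identity.

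Promoter sequences were available from RefSeq (GRCm38.p6) for 7 of the 9 members, 9 start sites in all, and run from 250 bases before to 50 bases after each start. Tmem119 and Gpr34 had no entry. Of the 4 measured members with an entry, 3 are printed here. Mertk is shown because it is the member with an entry that was lower with PGC-1α, Siglech because it had the brightest probe of the set, and Fcrls because it and Siglech held the core motif of PU.1, GAGGAA, the lineage factor of macrophages. Capitals mark that motif on either strand, so TTCCTC is the same motif read from the other strand.
Mertk, chr2:128698665-128698964, plus strand: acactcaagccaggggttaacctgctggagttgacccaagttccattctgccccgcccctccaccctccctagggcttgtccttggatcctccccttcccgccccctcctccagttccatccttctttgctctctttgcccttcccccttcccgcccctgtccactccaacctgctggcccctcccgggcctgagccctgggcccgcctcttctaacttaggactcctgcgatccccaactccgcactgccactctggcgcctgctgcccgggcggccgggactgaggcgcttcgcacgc
Siglech, chr7:55767934-55768233, plus strand: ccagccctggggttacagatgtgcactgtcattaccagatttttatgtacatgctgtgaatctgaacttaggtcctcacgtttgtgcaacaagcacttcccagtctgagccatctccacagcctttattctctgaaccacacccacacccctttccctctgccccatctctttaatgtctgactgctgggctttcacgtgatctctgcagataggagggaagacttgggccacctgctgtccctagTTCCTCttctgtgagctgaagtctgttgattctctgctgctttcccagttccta
Fcrls, chr3:87263475-87263774, minus strand: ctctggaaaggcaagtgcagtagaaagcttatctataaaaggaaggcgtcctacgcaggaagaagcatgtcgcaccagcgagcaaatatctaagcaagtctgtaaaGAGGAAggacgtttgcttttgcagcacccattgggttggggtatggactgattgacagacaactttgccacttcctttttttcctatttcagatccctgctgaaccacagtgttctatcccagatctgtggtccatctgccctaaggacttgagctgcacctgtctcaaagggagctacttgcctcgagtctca
The motif began 4 bases before the start site in Siglech, on the opposite strand, and 144 bases before it in Fcrls, on the gene's own strand. It was found in 2 of the 9 member promoters and in 28.3% of the 32851 promoters in the table. The site of the estrogen-related receptors, partners of PGC-1α, searched as AAGGTCA on both strands, was found in 0 of the 9 and in 4.72% of all promoters, so no match of one motif overlapped the other. A match of these letters describes the window and does not show that a factor binds there.

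Each array held 59305 spots other than controls, and 41122 to 44966 (control) and 41405 to 45165 (overexpression) of them were well above background. The arrays with PGC-1α were all dimmer. The 75th percentile of intensity, by which each array was scaled, was 1617, 1627 and 1893 for control and 1157, 856 and 1268 for overexpression. On the scaled values the median log2 fold change of the 17058 tested genes was 0.23 (overexpression minus control, as everywhere here), and under quantile normalization it was 0.03. Calls of a size near this shift can change with the scaling. The overexpressed gene gave no check of the labels. Its 2 probes (Ppargc1a) had intensities of 9.06 to 21.8 in control and 9.07 to 22.3 in overexpression samples, and each was well above background on 2 of 3 control arrays and on 1 or 2 overexpression arrays. Whether these probes can read the lentiviral transcript is not given in the sources used here. The arrays lay on 2 slides, control 1 and 2 and overexpression 1 and 2 on slide 1 and the remaining pair on slide 2.

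The set was split in what could be measured at all. Of the 12 member probes, 5 were well above background on all 6 arrays, 1 for each of Tmem119, Siglech, Olfml3, Mertk and Fcrls. The probes of P2ry12 (1), Cx3cr1 (2), Sall1 (1) and Gpr34 (2) were well above background on no array in either group. Their intensities ran from 2.23 to 10.5, while the lowest intensity that any probe well above background reached was between 11.0 and 24.3, depending on the array. For P2ry12, the purinergic receptor most often used to sort microglia, the intensities were 2.76, 3.14 and 6.11 in control and 2.65, 2.72 and 4.56 in overexpression samples. Sall1 read 2.48, 3.17 and 5.02 in control and 2.47, 2.55 and 3.85 in overexpression samples. Both genes stayed within the background range in all 6 samples, and both groups overlapped. The brighter Cx3cr1 probe read 6.02, 8.03 and 6.17 in control and 5.57, 2.54 and 10.5 in overexpression samples. Its other probe read 4.11, 2.83 and 5.41 against 4.10, 3.52 and 6.86. For Gpr34 the brighter probe read 4.39, 5.37 and 9.84 against 5.12, 2.53 and 5.13, and the other 2.56, 6.46 and 5.13 against 2.23, 2.53 and 4.11. On these unscaled intensities each of the 6 probes overlapped between the groups, and no fold change is given for a gene below background in both. A change of any of these 4 genes was not detectable at this signal. In a fit with no filter on dim probes, the dimmer Cx3cr1 probe had a limma adjusted p of 0.032 while its intensities stayed below background in all 6 samples.

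**Figure D1:**
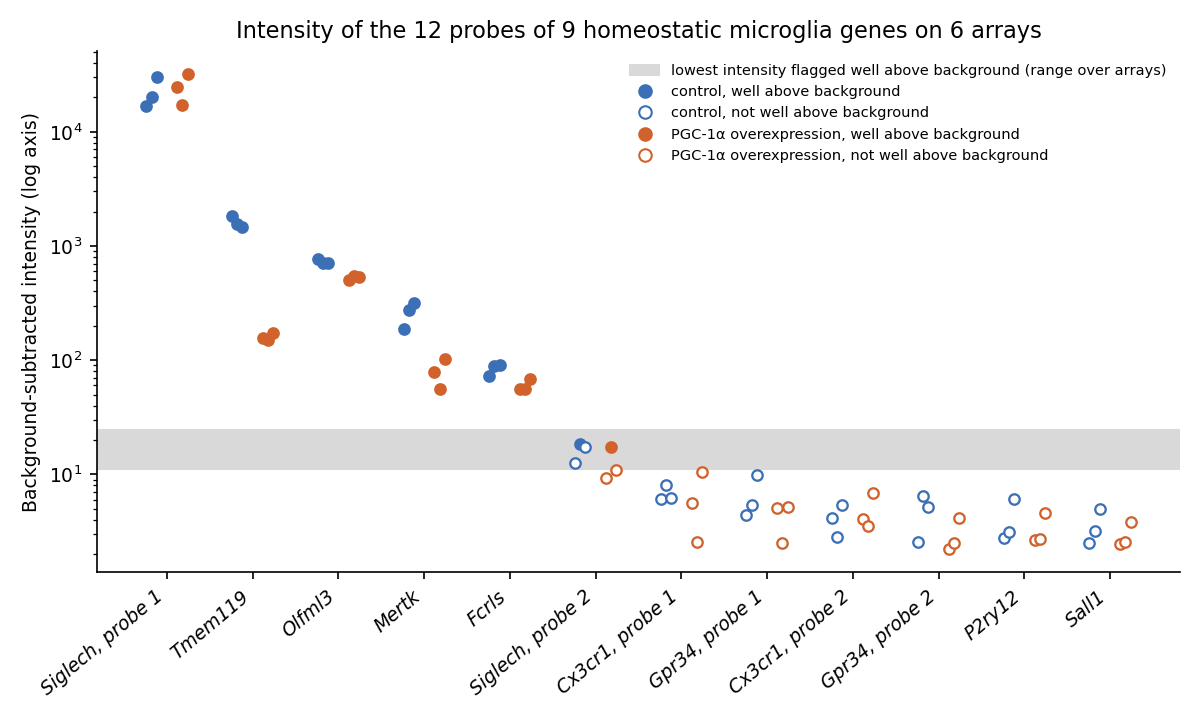
Background-subtracted intensity (vertical, log axis) of each of the 12 member probes (horizontal, ordered by mean intensity) on the 3 control and 3 overexpression arrays, each point 1 array, filled where the scanner software marked the probe as well above background and open where it did not. The grey band spans 11.0 to 24.3, the range over the arrays of the lowest intensity marked as well above background, and the probes of P2ry12, Cx3cr1, Sall1 and Gpr34 lie below it with open points only.

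In a cell culture, fewer cells that express a gene and less RNA of it per cell cannot be told apart, which holds for every value here. The cells carried the macrophage and microglia lineage in both groups: 14 of 14 lineage markers, among them Itgam (CD11b), Ptprc (CD45), Adgre1 (F4/80) and Aif1 (Iba1), were well above background on all 6 arrays. Their summed scaled intensity was 102 to 104 in control and 129 to 148 in overexpression samples, in units of the array's 75th percentile. By gene, 3 were higher and 3 lower with a median of -0.07, and with quantile normalization 0 were higher and 7 lower with a median of -0.33, so that the sum did not describe a rise of the list. Of all tested genes, 36.9% were higher and 19.6% lower on the scaled values. These markers belong to macrophages and microglia alike and cannot tell a microglial line from another macrophage line. Of the 9 homeostatic genes, 4 were not well above background.

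Tmem119 was the member that differed most. Its intensity was 1824, 1546 and 1480 in the control samples and 156, 150 and 172 in the samples with PGC-1α. The groups lay far apart, and the lowest control sample was above the highest overexpression sample before any scaling. On the scaled log2 values it was -0.09 ± 0.26 in control and -2.76 ± 0.21 in overexpression samples (SD, n = 3 each). Tmem119 fell by 2.68 on the log2 scale (SE 0.18, limma adjusted p = 4.4e-05), a level 6.39-fold lower. Only 64 of the 17058 tested genes (0.375%) had a lower fold change. The value was -2.90 relative to the median of all genes, -2.71 with quantile normalization, -2.75 on slide 1 alone, and -2.53 for the single pair of arrays on slide 2. It passed the threshold in 20 of 20 alternatives, with values between -2.81 and -2.29.

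Mertk, the engulfment receptor, moved the same way by a smaller amount. The control samples read 186, 273 and 318 and the overexpression samples 78.3, 55.8 and 103. Here too the groups did not overlap, with control 1 the lowest of its group. The scaled log2 level was -2.76 ± 0.32 in control and -3.81 ± 0.17 in overexpression samples (SD, n = 3 each). Mertk fell by 1.06 (SE 0.18, limma adjusted p = 0.0025), a level 2.08-fold lower, and 6.74% of the tested genes had a lower fold change. Slide 1 alone gave -1.06 and the pair on slide 2 gave -1.05. The call held in 20 of 20 alternatives, but background correction by normexp, which adds an offset that compresses dim probes, gave the smallest size, -0.48 with the 75th percentile and -0.71 with quantile normalization.

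Siglech, the lectin, had the brightest probe of the set, and its call rested on the scaling. Intensities were 16716, 20353 and 30007 in control and 24717, 17108 and 31760 in overexpression samples. These unscaled values overlapped between the groups. The spot of overexpression 3 carried an outlier flag and was left out of the fit, which leaves 2 overexpression samples. The scaled log2 values were 3.37, 3.64 and 3.99 in control and 4.42 and 4.32 in overexpression samples, with no overlap. Siglech rose by 0.70 on this scale (SE 0.20, limma adjusted p = 0.021), or by 0.47 relative to the median of all genes. With quantile normalization the value was 0.12 (adjusted p = 0.67), with normexp and quantile normalization it was 0.15 (adjusted p = 0.50), and with the authors' processed log2 values it was 0.23 (adjusted p = 0.34), none of which passed. The value was above 0 in each of the 17 alternatives that gave one. Leaving out control 1 gave 0.55 (adjusted p = 0.054) and leaving out control 2 gave 0.69 (adjusted p = 0.056). With the flagged spot kept it was 0.79 (adjusted p = 0.0072), and slide 1 alone gave 0.86. A second Siglech probe, for another transcript, was well above background on 1 array of each group, with 12.5, 18.3 and 17.5 in control and 9.31, 17.4 and 10.9 in overexpression samples, and was not tested.

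Olfml3 and Fcrls did not pass the test in either direction. The secreted protein Olfml3 read 771, 716 and 716 in control and 507, 549 and 530 in overexpression samples. After scaling the groups overlapped (-1.22 ± 0.17 and -1.03 ± 0.34, SD, n = 3 each), with a log2 fold change of 0.19 (95% interval -0.24 to 0.62, limma adjusted p = 0.41). The scavenger receptor Fcrls read 72.5, 88.8 and 91.1 in control and 56.4, 55.4 and 68.2 in overexpression samples. Its scaled values overlapped as well (-4.35 ± 0.14 and -4.18 ± 0.21), and its log2 fold change was 0.18 (95% interval -0.17 to 0.52, limma adjusted p = 0.34). Both values lay close to the median of all genes, from which they differed by -0.04 and -0.05, and 0 of 20 alternatives called either gene. The unscaled intensities of both genes were lower in every overexpression sample, as were the 75th percentiles of the arrays.

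**Figure D2:**
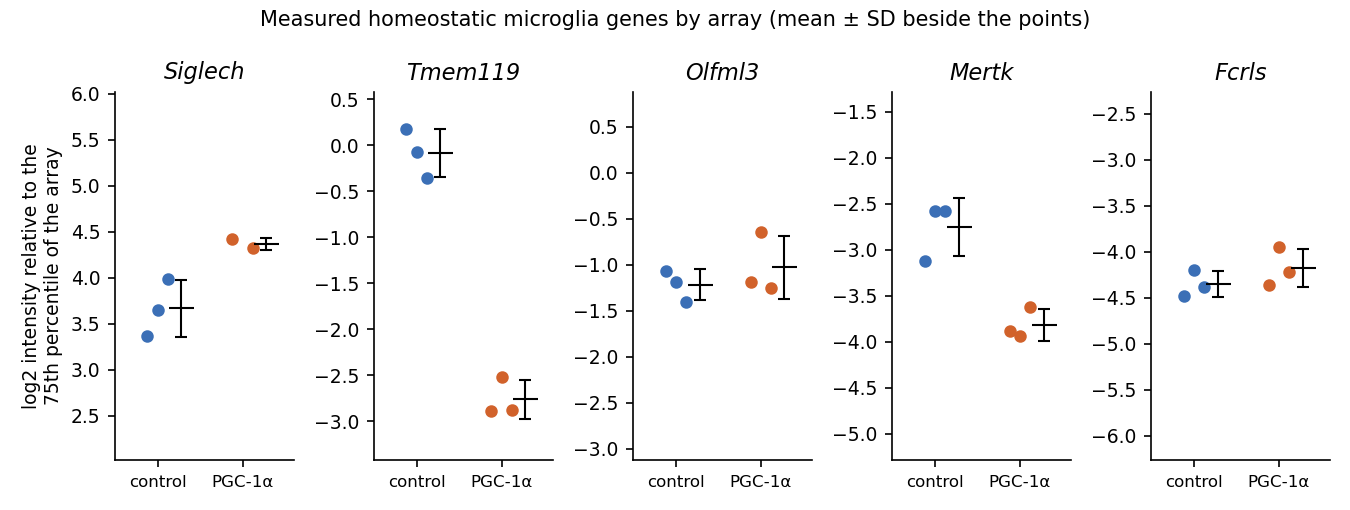
Scaled log2 intensity (vertical, log2 of intensity over the array's 75th percentile) of the 5 measured members, each point 1 array, with mean and SD beside the points, control left and PGC-1α overexpression right. The axes start at different levels and all span 4 log2 units, Tmem119 and Mertk are lower in all 3 overexpression samples than in any control sample, and Siglech has 2 overexpression values because 1 spot carried an outlier flag.

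Counted over genes, 5 of the 9 members were tested, 2 were lower, 1 was higher and 2 did not pass. These counts stand against a background in which 56.5% of the 17058 tested genes passed the same threshold, 36.9% higher and 19.6% lower. The share of members called, 60.0% of 5, was near that background and is no result about the set. Of the 4 members with values on all 6 arrays, the groups did not overlap for 2, Tmem119 and Mertk, against 65.5% of 16292 genes measured on as many arrays. With a log2 fold change of 1 or more added to the threshold, 14.2% of all genes and 2 members (Tmem119 and Mertk) remained. The median over the 5 members was 0.18 against 0.23 over all tested genes. The members differed among themselves, from -2.68 for Tmem119 to 0.70 for Siglech. In an exact permutation test of the 3 against 3 arrays, which cannot give less than 0.1, Tmem119 and Mertk each reached p = 0.1.

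**Figure D3:**
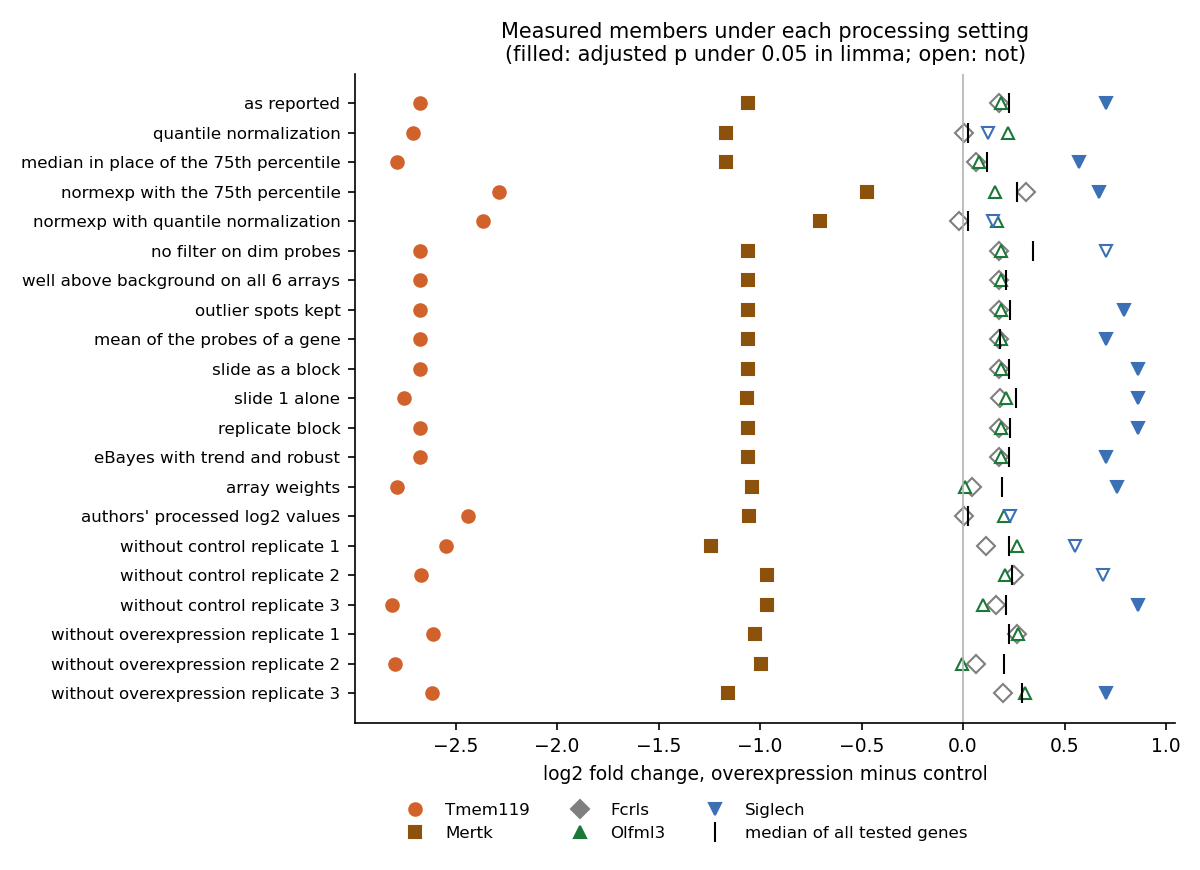
Log2 fold change (horizontal, overexpression minus control) of the 5 measured members under the reported processing and each alternative (vertical), filled where limma's adjusted p was under 0.05 and open where it was not, with the median of all tested genes as a short vertical line. Tmem119 stays between -2.81 and -2.29 and Mertk between -1.24 and -0.48, all filled, while Siglech ranges from 0.12 to 0.86 with both filled and open points.

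Among listed genes that are known to set up the homeostatic state, more were called lower than higher. Of 25 regulators of microglial identity, 23 were tested, 9 were lower, 2 were higher and 12 did not pass. Their median was -0.27 against 0.23 over all genes, and quantile normalization gave the same split of 9 lower and 2 higher. The share called was 47.8%, against 56.5% of all tested genes (36.9% higher and 19.6% lower). The list was chosen with earlier results of these data known, so the split is not independent of them. Tgfbr2, the receptor subunit that binds TGF-β, read 482, 399 and 590 in control and 48.4, 42.9 and 52.6 in overexpression samples. Nrros, which anchors latent TGF-β on the microglial surface, read 2854, 2175 and 2196 in control and 280, 247 and 257 in overexpression samples. For Klf2, a Krüppel-like factor that restrains macrophage activation, the values were 2214, 2117 and 2452 in control and 340, 238 and 370 in overexpression samples. In all 3 genes the lowest control sample was several times the highest overexpression sample. Tgfbr2 fell by 2.68 (SE 0.15, adjusted p = 2.6e-05). Normexp gave it a smaller size, -1.65 with the 75th percentile and -1.88 with quantile normalization, where Tmem119 had -2.29 and -2.37. Nrros fell by 2.53 (SE 0.20, adjusted p = 8.8e-05) and Klf2 fell by 2.20 (SE 0.11, adjusted p = 2.4e-05), all by limma and all in 20 of 20 alternatives.

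Further TGF-β genes did not move as 1 block. Tgfbr1 was named by the rule set for each list, and the others in this paragraph after their values were seen. Smad3, a signal carrier downstream of the receptor, fell by 1.11 (SE 0.15, limma adjusted p = 0.00087). The ligand Tgfb1 had a log2 fold change of 0.13 (95% interval -0.22 to 0.49) and did not pass. Tgfbr1, the other receptor subunit, was called higher at 0.39 (SE 0.12, adjusted p = 0.026) on its brighter probe, while its other probe had -0.49, and the call was lost in 10 of 20 alternatives, among them those without control 1, control 2, overexpression 1 or overexpression 3 (0.33 to 0.43 when 1 array was left out). Spi1, which encodes PU.1, had a log2 fold change of 0.17 (95% interval -0.29 to 0.62) and did not pass.

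Other genes of the homeostatic signature went both ways. Of 30 such genes 24 were tested, with 9 higher, 7 lower and 8 not past the threshold on the scaled values, and 6 higher and 8 lower with quantile normalization. Their median was 0.20, or -0.03 relative to all genes. The share called was 66.7%, against 56.5% of all tested genes (36.9% higher and 19.6% lower). The lower genes were led by Rnase4, a secreted ribonuclease, at -1.44 (SE 0.13), Susd3, a sushi-domain membrane protein, at -1.24 (SE 0.16), and Slc2a5, the fructose transporter, at -1.19 (SE 0.17). Rnase4 read 1254, 1399 and 1308 in control and 331, 231 and 382 in overexpression samples, with no overlap. The higher genes were led by C1qb, a chain of complement C1q, at 1.00 (SE 0.17), Sparc, a matrix-associated protein, at 0.96 (SE 0.20), and Bhlhe41, a transcriptional repressor, at 0.96 (SE 0.14). C1qb read 1281, 1493 and 1407 in control and 1936, 1691 and 1668 in overexpression samples, higher in each even before scaling. The Bhlhe41 call rests on the brighter of its probes, since the other had -1.28. All 6 had a limma adjusted p of 0.0051 or less, and the other 5 passed the threshold in 20 of 20 alternatives.

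For ligands, partners and relatives of the members, 21 of 29 genes were tested, 9 were higher, 4 lower and 8 did not pass (7 higher and 6 lower with quantile normalization), with a median of 0.17. The share called, 61.9%, was near the 56.5% of all tested genes (36.9% higher and 19.6% lower) and is no result about the list. With quantile normalization 3942 of all 17058 tested genes were higher and 3806 lower. Around Mertk, in genes picked for their known role after their values were seen, the bridging ligand Gas6 rose by 0.56 (SE 0.14, limma adjusted p = 0.0097). The related kinases Axl (-0.15, 95% interval -0.44 to 0.15) and Tyro3 (-0.14, 95% interval -0.67 to 0.38) did not pass on their brightest probes, while a second probe of each had -0.89 and -0.76. Since both second probes were negative, the values do not show a fall of Mertk alone among these kinases. The difference between the kinases was not tested. Around Siglech, the adaptor Tyrobp (DAP12) was called higher at 0.74 (SE 0.13, adjusted p = 0.0031), a call that quantile normalization lost at 0.12 (adjusted p = 0.35), as it did for Siglech itself. Cx3cl1, the ligand of Cx3cr1, had -0.13 (95% interval -0.55 to 0.29).

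Relatives of the members by family gave the extremes of that list. Siglece, an inhibitory lectin of the Siglech family, was higher at 0.92 (SE 0.16), and Siglecf, another member, was lower at -1.10 (SE 0.15). Olfml2b, from the olfactomedin-like family of Olfml3, was higher at 1.21 (SE 0.22). Ccl26, a chemokine that can bind CX3CR1, was higher at 1.00 (SE 0.12), and Sall3, a paralog of Sall1, was lower at -0.53 (SE 0.13). P2ry6, the receptor of the P2ry12 family that senses UDP, read 45.9, 35.0 and 45.8 in control, all well above background, and 8.75, 6.31 and 14.8 in overexpression samples, where it was not well above background on any array. On the scaled values P2ry6 was at least 1.93-fold lower in the overexpression samples. This bound is the mean of the control samples against the lowest signal well above background on each overexpression array. The bound itself was not tested, since the limma fit (adjusted p = 0.00095) used overexpression values below background. The limma adjusted p of these 6 genes was 0.0099 or less. All of them except P2ry6 and Siglecf passed in each of 20 alternatives. Under normexp with the 75th percentile P2ry6 turned to 0.13 and Siglecf was -0.053, and neither passed. With normexp and quantile normalization both passed at smaller sizes, -0.32 and -0.46, and Ccl26 passed at 0.34.

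Disease-associated microglia markers, the set that activated microglia gain as homeostatic genes are lost, depended on the scaling. Of 24 genes 21 were tested, with 9 higher, 1 lower and a median of 0.34, but quantile normalization gave 1 higher, 3 lower and a median of -0.09. The share called on the scaled values was 47.6%, against 56.5% of all tested genes (36.9% higher and 19.6% lower). With quantile normalization 3942 of all 17058 tested genes were higher and 3806 lower. Igf1, a growth factor, was higher at 1.00 (SE 0.12) and 0.86 with quantile normalization. Fth1, the ferritin heavy chain, and Lgals3, a galectin, had 0.70 (SE 0.13) and 0.67 (SE 0.14) on the scaled values and 0.05 each with quantile normalization, where neither passed. Cst7, a cystatin and the one gene called lower, had -0.41 (SE 0.14, limma adjusted p = 0.034) and -0.74 with quantile normalization, and its call was lost in 6 of 20 alternatives, among them those without control 1, control 3, overexpression 1 or overexpression 3 (-0.50 to -0.33 when 1 array was left out). The 3 higher genes had a limma adjusted p of 0.0048 or less on the scaled values. The falls of Tmem119 and Mertk thus stood beside a disease-associated list whose median changed sign with the scaling.

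**Figure D4:**
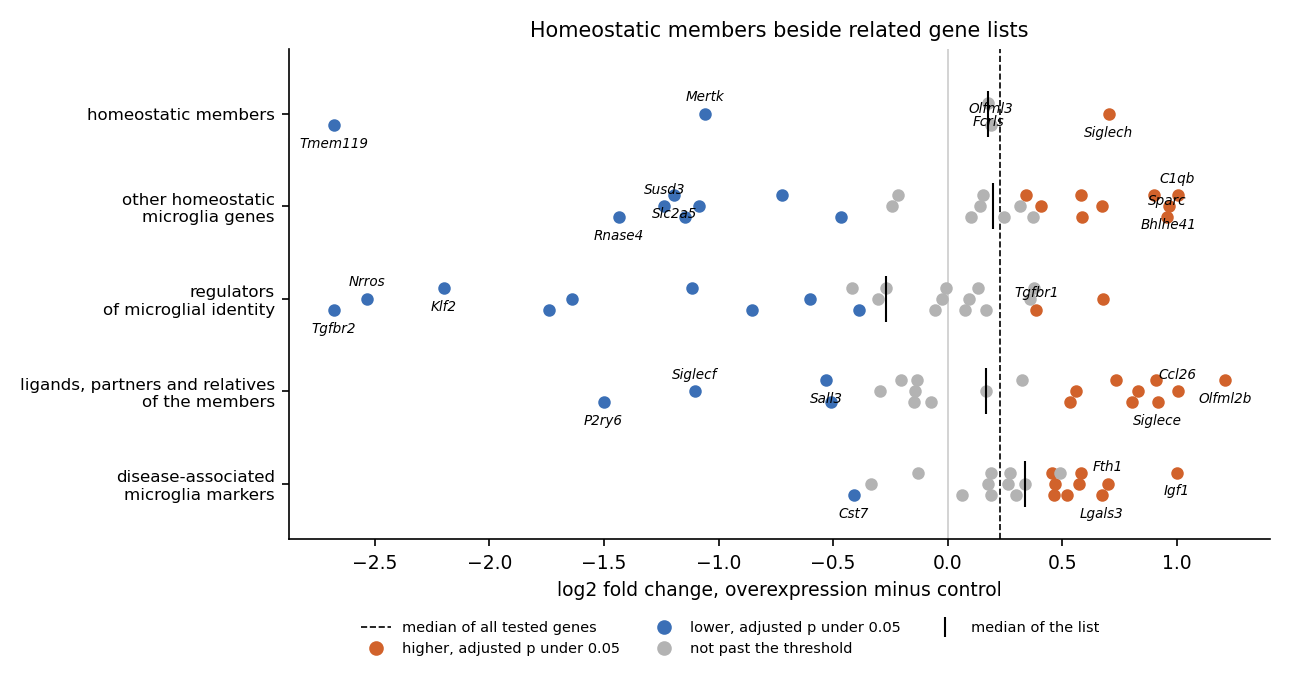
Log2 fold change (horizontal, overexpression minus control) of every tested gene of the homeostatic members and 4 related lists (vertical, points offset for legibility), coloured by direction where limma's adjusted p was under 0.05 and grey where it was not, with the median of each list as a black bar and the median of all tested genes, 0.23, as a dashed line. Tmem119, Tgfbr2, Nrros and Klf2 stand below -2, and the regulators are the list whose median, -0.27, lies below 0.

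Markers of other cell types were looked at in the same samples, since some read above background in this line. Of the border and blood-derived macrophage markers 9 of 14 were tested, 4 higher and 3 lower. Of the 14, 8 were well above background on all 6 arrays and 4 (Mrc1, Cd163, Ms4a7 and Ccr2) on no array. The summed scaled intensity of this list was 16.1 to 17.7 in control and 21.8 to 24.6 in overexpression samples. Its median log2 fold change was 0.35, and -0.01 with quantile normalization. Of the tested markers, 3 of 5 astrocyte, 2 of 4 neuron, 2 of 7 oligodendrocyte and 1 of 4 endothelial genes were higher, and 0, 1, 0 and 1 were lower. With quantile normalization 2, 1, 2 and 1 of these genes were higher and 0, 1, 0 and 1 lower, and 2 border macrophage markers were higher and 3 lower. Over all 17058 tested genes 36.9% were higher and 19.6% lower on the scaled values, and 3942 were higher and 3806 lower with quantile normalization. The marker counts rest on 4 to 9 tested genes per list and are no result about the lists. Well above background on all 6 arrays were 4 of 7 astrocyte, 3 of 8 neuron, 5 of 8 oligodendrocyte and 4 of 7 endothelial markers. Sums of these lists, control against overexpression, were 7.42 to 8.49 against 11.3 to 14.6 for astrocyte markers. For neuron markers they were 24.3 to 29.8 against 36.6 to 49.9. They were 1.53 to 1.71 against 1.62 to 1.85 for oligodendrocyte and 3.02 to 3.60 against 2.93 to 3.24 for endothelial markers. As for the lineage markers, such a sum need not describe a rise of the list. The medians by gene, in the same order, were 0.72, 0.23, 0.22 and -0.05. With quantile normalization they were 0.47, -0.16, 0.23 and -0.13. Well above background on no array were 1 of 7 astrocyte, 4 of 8 neuron, 1 of 8 oligodendrocyte and 3 of 7 endothelial markers. Among these were Slc1a3, Syt1, Slc17a7, Olig1 and Cdh5. The part of other cells in the fall of Tmem119 and Mertk was not tested.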

How the data were processed

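RNA of LPS-treated BV2 cells was measured on 6 Agilent 1-colour arrays, 3 per group, with groups and replicate numbers from the labels. The dye is Cy3 in the labels and Cy5 in the methods, and the files hold the green channel. The authors' scanner software (Agilent Feature Extraction 11.5.1.1) gave each of 62976 spots a background-subtracted intensity, which was deposited with no normalization across arrays. In addition, the authors deposited log2 values normalized in GeneSpring by a procedure that is not given in the sources used here, which served as an alternative.

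From the intensities, log2 values were computed and centred on each array's 75th percentile over non-control spots. Outlier spots were left out, repeated spots averaged, and 33762 of 56605 probes (59.6%) were named through RefSeq accessions. The array design names an older assembly than the promoters, so no probe positions are given. A probe was tested with values on at least 2 arrays per group and signal well above background on all 3 arrays of 1 group, and of several tested probes the brightest was used for the gene. Overexpression was compared with control by lmFit and eBayes of limma 3.58.1 under R 4.3.3 (two-sided test, Benjamini-Hochberg adjustment across all tested genes, threshold 0.05). The steps were tested on simulated data.

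Alternatives were quantile normalization, the median in place of the percentile, normexp (offset 50, on median signals, since the files hold no mean signal), other filters, outlier spots kept, the mean of a gene's probes, slide or replicate number as a block, slide 1 alone, other variance models, the authors' values and each array left out. Named genes are the members and, per list, the 3 highest and 3 lowest called genes without overlap, with further genes marked in the text. One gene that this rule names is not reported here. The members and lists were chosen with earlier results of these data known. Tables used Python 3.11.15, numpy 2.4.6, pandas 2.3.3 and scipy 1.17.1, and plots matplotlib 3.10.9.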

Additional observations from a re-analysis of the deposited data

How the results depend on the processing

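The number of members called was 3 and stayed between 2 and 3 in all alternatives. Tmem119 and Mertk kept direction and call in 20 of 20, and Siglech kept its direction in the 17 that gave a value and its call in 11. Besides the losses given in the report, Siglech had an adjusted p of 0.052 without a filter on dim probes, where more genes are tested. It gave no value without overexpression 1 or 2, where 1 overexpression value remains. It also gave none with signal above background required on all 6 arrays, because the flagged spot of overexpression 3 was counted as missing. The regulators called numbered 11, and 7 with slide 1 alone, where 4 arrays are used. The disease-associated markers called numbered 10, and 4 with quantile normalization, 5 with normexp and quantile normalization, 6 with slide 1 alone and 4 with the authors' log2 values, with 6 to 11 when 1 array was left out (6 without control 3). With all probes of a gene averaged, Bhlhe41 was -0.16 and Tgfbr1 was -0.053, since their probes differ in sign, and P2ry6 was 0.13 under normexp with the 75th percentile, where the cause was not tested. Among all genes, 9631 were called as reported and 7748 with quantile normalization, which divided them into 3942 higher and 3806 lower. The count was 6868 with normexp and quantile normalization. Deviations of same-numbered samples correlated at -0.16, 0.07 and 0.60, so the numbers do not pair samples 1 and 2. The 0.60, of control 3 with overexpression 3, was the highest of all pairs. These are the arrays on slide 2, so number and slide cannot be told apart there. With the replicate block, 3 members were called and 10559 genes in all, and control 1 correlated best with overexpression 2. Signal over background limits P2ry12, Cx3cr1, Sall1 and Gpr34.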
